A study of Mus musculus with 24 samples.

Results

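The genes described here rose when wild-type mouse embryonic stem cells (ESCs) differentiated and rose little or not at all on the scale used here in Tet2-/- cells. They were chosen by their values in the WT and Tet2-/- libraries alone. On the scale log2(CPM + 1), where CPM is a gene's count scaled to a library total of 1000000 counts, a gene was kept if its WT mean rose by at least 2 from day 0 (D0) to day 6 (D6) and its Tet2-/- mean rose by no more than 0.5 or fell by any amount, and symbols beginning with Hox or Col were dropped. The rule kept 104 of 22926 gene symbols. It started from 834 genes with the WT rise, of which 730 were not kept, including 1 dropped for its symbol. The WT and Tet2-/- values of these genes are therefore descriptions, and only the Tet1-/-, DKO and TKO libraries offer tests that the choice did not use.

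The study compared 24 poly(A) RNA-seq libraries from ESC clones of 129/SVj origin, grown without feeders on gelatin. The knockout clones were made by CRISPR/Cas9 in a parental line with an eGFP reporter at Pou5f1, which the paper calls WT. WT (clones O4.1, O4.2 and O4.13), Tet1-/- (2.1, 2.2, 2.3 and 2.4), Tet2-/- (Tet2_KO_3.10 and Tet2_KO_3.11), DKO lacking Tet1 and Tet2 (DKO_5.11 and DKO_5.12) and TKO lacking Tet1, Tet2 and Tet3 (TKO_8.4 and TKO_8.12) were sampled with LIF at D0 and after 6 days without LIF at D6. Each library is 1 clone, so n counts clones: 3 each for WT and Tet1-/- and 2 each for the others at either day. Of the Tet1-/- clones, 2.3 has a D0 library and no D6 library and 2.2 the reverse, and the D6 label DKO_512 was taken as clone DKO_5.12. Where several values of a genotype are given without clone names, they follow the clone order of this list.

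TET enzymes oxidise 5-methylcytosine, mostly at CpG sites, and so open a route to DNA demethylation. LIF keeps mouse ESCs self-renewing, and its withdrawal lets them leave the pluripotent state and switch on genes of the primitive streak, mesoderm and endoderm. The cardiac mesoderm factor Hand1, the early mesoderm factor Mesp1 and the VEGF receptor Kdr are members of the group.

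Library totals ran from 18400463 to 37290208 counts. The targeted transcripts gave an incomplete check of the labels, since small indels need not remove an mRNA. At D6 the Tet2 transcript was 16.2 and 17 CPM in Tet2-/-, at the upper end of the 13.2 to 16.9 CPM of WT, and Tet1 was 90.3 to 203 CPM in Tet1-/- and 116 to 133 CPM in WT. At D0, Tet2 lay at 84.6 to 91.0 CPM in WT, 19.5 and 21.3 CPM in Tet2-/-, 51.8 and 20.8 CPM in DKO, and 40.1 and 7.5 CPM in TKO. Tet1 at D0 was 214 to 416 CPM in WT and 89.2, 117 and 332 CPM in Tet1-/- clones 2.1, 2.3 and 2.4, while DKO had 346 and 216 CPM, both within the WT range, and TKO 536 and 38.4 CPM. Tet3 at D0 was 4.9 to 7.7 CPM in WT and 4.2 and 2.6 CPM in TKO.

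Start regions are shown for a few members chosen by hand from those described below. Kdr, Hand2, Cxcr4 and Mesp1 did not pass the test in TKO, and Trim30a did. Each region is the RefSeq promoter window of 250 bases before to 50 after the gene start. It is written 5′ to 3′ on the gene's strand, with every CG in capitals. All were placed by exact match in mm9 (NCBIM37), the build of the deposited counts: Kdr at chr5:76374431-76374730 (minus), Hand2 at chr8:59799530-59799829 (plus), Cxcr4 at chr1:130488827-130489126 (minus), Mesp1 at chr7:86938427-86938726 (minus) and Trim30a at chr7:111613658-111613957 (minus).
Kdr: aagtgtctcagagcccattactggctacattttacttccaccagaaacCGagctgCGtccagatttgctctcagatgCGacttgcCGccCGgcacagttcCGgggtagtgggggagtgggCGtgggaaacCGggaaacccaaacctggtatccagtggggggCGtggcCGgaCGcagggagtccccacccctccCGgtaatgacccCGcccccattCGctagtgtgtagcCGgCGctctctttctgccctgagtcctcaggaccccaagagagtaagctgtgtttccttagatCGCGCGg
Hand2: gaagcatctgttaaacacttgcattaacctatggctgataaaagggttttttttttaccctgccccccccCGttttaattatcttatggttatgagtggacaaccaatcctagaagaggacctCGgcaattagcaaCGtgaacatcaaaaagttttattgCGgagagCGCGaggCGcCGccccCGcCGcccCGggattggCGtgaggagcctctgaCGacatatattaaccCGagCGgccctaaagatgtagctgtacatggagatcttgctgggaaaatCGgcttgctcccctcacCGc
Cxcr4: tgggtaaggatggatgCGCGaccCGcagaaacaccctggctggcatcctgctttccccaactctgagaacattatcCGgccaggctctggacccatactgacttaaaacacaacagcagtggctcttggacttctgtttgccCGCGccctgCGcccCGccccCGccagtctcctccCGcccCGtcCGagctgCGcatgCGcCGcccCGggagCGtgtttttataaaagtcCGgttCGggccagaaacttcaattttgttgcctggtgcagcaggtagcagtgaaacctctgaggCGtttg
Mesp1: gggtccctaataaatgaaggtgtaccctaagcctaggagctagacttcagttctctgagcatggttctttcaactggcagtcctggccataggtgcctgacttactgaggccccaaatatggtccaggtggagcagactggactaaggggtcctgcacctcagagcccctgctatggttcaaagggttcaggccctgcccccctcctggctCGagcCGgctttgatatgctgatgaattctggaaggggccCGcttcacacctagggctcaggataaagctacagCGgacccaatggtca
Trim30a: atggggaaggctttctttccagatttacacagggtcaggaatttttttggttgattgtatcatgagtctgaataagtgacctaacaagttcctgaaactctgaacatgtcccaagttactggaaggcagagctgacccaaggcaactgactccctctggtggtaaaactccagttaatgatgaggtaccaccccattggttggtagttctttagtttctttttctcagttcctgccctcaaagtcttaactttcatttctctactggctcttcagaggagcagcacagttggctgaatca
These windows held 19 CpGs in Kdr, 17 in Hand2, 20 in Cxcr4, 4 in Mesp1 and 0 in Trim30a. Over all 27025 RefSeq promoters of GRCm38.p6 the median was 7, and 5.78% held none. In a search of both strands, the letters TATAAA occurred in Cxcr4 (14.2% of all promoters), CATCTG in Kdr and Hand2 (17.2%), and a CArG box in Mesp1 (1.57%). Only 73 of the 104 members had a window in the table, under the 80% needed, so a comparison of promoter content over the group is void. Among members not shown, Nuak1 (41 CpGs) and Prkar1b (35) passed in TKO and Pdgfra (5) did not. Whether CpG content goes with the rise of the members was not tested. No methylation was measured in these libraries.

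In WT the members rose by a median of 2.55 on the log2(CPM + 1) scale, from 2.00 for Sept8 to 6.08 for Hand1. In Tet2-/- the median change was 0.24, and it ran from -1.93 for Fgf10 to 0.49 for Iigp1. The added 1 in that scale shrinks changes at low levels: both Tet2-/- D6 libraries lay above both D0 libraries for 60 of the 104 members, where this held for 39.8% of 20752 genes with any count. Dkk1, a Wnt inhibitor, was 0 and 0.0268 CPM at D0 in Tet2-/- and 0.618 and 0.249 CPM at D6, while WT D6 libraries had 6.70 to 38.3 CPM. The WT threshold lay close to many genes: Sept8 (2.00), S100a6 (2.02) and Lgr5 (2.03) were just inside and Fam163a, Litaf and Emp2 (1.99 to 2.00) just outside. At the Tet2-/- threshold, Iigp1 (0.494), Afap1 (0.492) and Dkk1 (0.488) were just inside and Sh3rf2 (0.501), Pdgfb (0.503) and Arid3a (0.513) just outside. As a share of each gene's WT rise, the Tet2-/- median was 8.51% for the members and 59.3% for the 730 other genes with the WT rise. The rule itself fixes the direction of this gap.

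Most members rose in the other knockouts. DKO and TKO cells also lack Tet2, yet more members than not rose in each, so the group is named for the Tet2-/- clones and not for every genotype without Tet2. A quasi-likelihood test in edgeR, with p-values adjusted over all genes by Benjamini-Hochberg, called a gene when its adjusted p was below 0.05 and it changed by over 2-fold. By this call 104 of 104 members rose from D0 to D6 in Tet1-/-, where 19.9% of the 15639 genes tested rose. In DKO 85 rose (18.6% of all genes) and in TKO 76 rose (16.8% of all genes), and none fell in any of the 3 genotypes. The median fitted log2 fold change over the members was 3.43 for Tet1-/-, 2.94 for DKO and 2.4 for TKO, while over all genes it was 0.00, -0.01 and 0.01. Of the 730 other genes with the WT rise, 729 rose in Tet1-/-, 723 in DKO and 688 in TKO. With clone as a block in the fit, 95 members rose in Tet1-/-, 92 in DKO and 82 in TKO. All 104 members passed the filter on low counts, which they met by their WT D6 level. The TKO count was 47 without the D6 library of clone TKO_8.12.

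In Tet1-/-, DKO and TKO alike 71 members rose, as did 12.3% of all genes tested. A further 14 passed in all but TKO (3.51% of all genes), 5 in all but DKO (1.03%), and 14 passed in Tet1-/- alone (3%). The last 14 were Apcdd1, Bmp7, Fbln2, Fgf10, Hand2, Hs3st3b1, Kdr, Nrp1, Plxna2, Plxna4, Prex1, Sept8, Snai1 and Tbx20. Missing the threshold in DKO or TKO does not show a difference from Tet1-/-, which was tested separately.

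**Figure D1:**
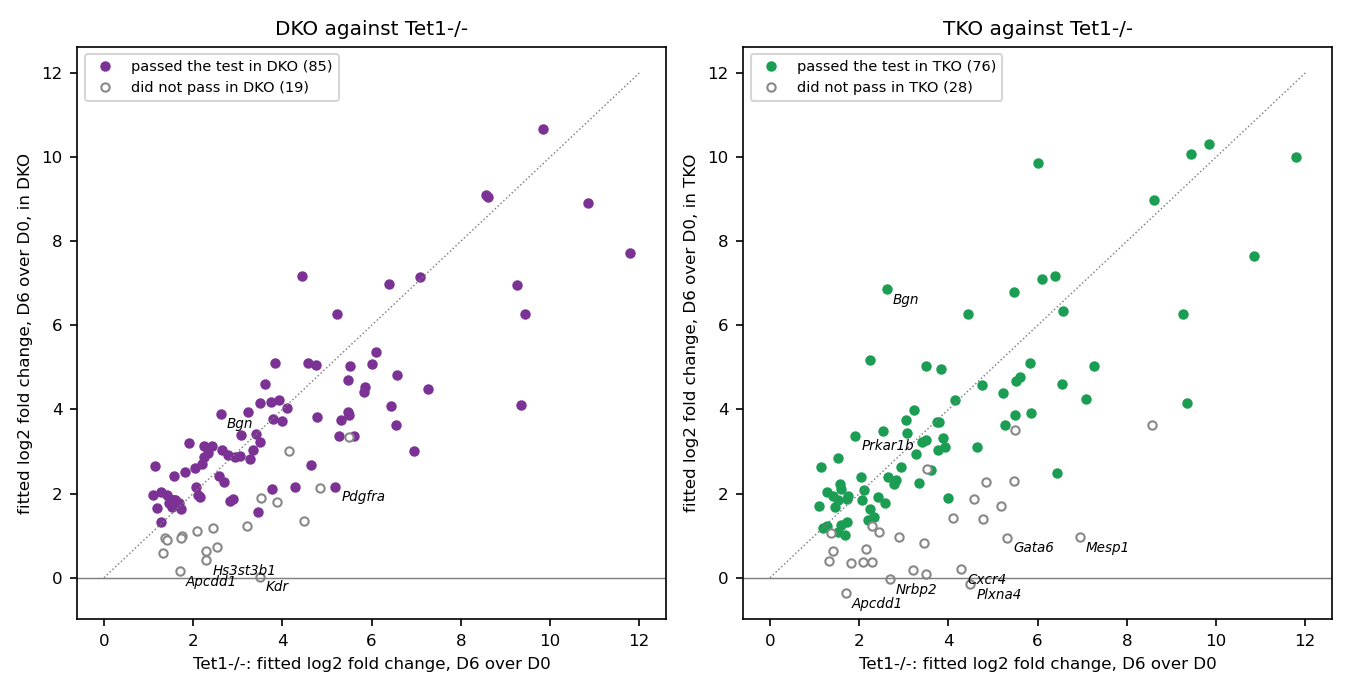
Fitted log2 fold change (D6 over D0) of each of the 104 members in DKO (left) and TKO (right) against Tet1-/-, with filled points for members that passed the edgeR test in the genotype on the vertical axis and a dotted line of equal change. The 19 members that did not pass in DKO and the 28 in TKO lie mostly near 0 to 2 on the vertical axis, with Kdr and Apcdd1 near 0 in DKO. Values above about 8 belong to genes with almost no D0 counts and depend on the fit's prior count.

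Set against the WT rise, the members reached a median of 74.5% (Tet1-/-), 67.6% (DKO) and 54.0% (TKO). The 730 other genes reached 90.4%, 94.6% and 80.7%. These shares use the WT libraries of the rule and carry no test. The order of the roles was not the same in each genotype, and no test compared roles. In Tet1-/- the medians lay close together, from 70.5% for extracellular matrix and 71.3% for muscle, cytoskeleton and junction genes to 75.1% for transcription genes, 77.0% for ligands and 80.6% for receptors. In DKO the medians were lowest for transcription and chromatin genes (46.0%, 19 members), secreted ligands and their regulators (47.1%, 13) and receptors and guidance genes (53.9%, 16). Signalling genes (68.4%, 10), muscle, cytoskeleton and junction genes (75.7%, 15), extracellular matrix genes (78.7%, 8) and unassigned genes (80.4%, 18) were higher. The 5 interferon-inducible genes reached 112% in DKO and 90.9% in TKO. In TKO the ligands (32.3%), receptors (41.3%) and transcription genes (41.9%) were again the lowest. Roles were assigned by hand from gene names after the members were known.

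**Figure D2:**
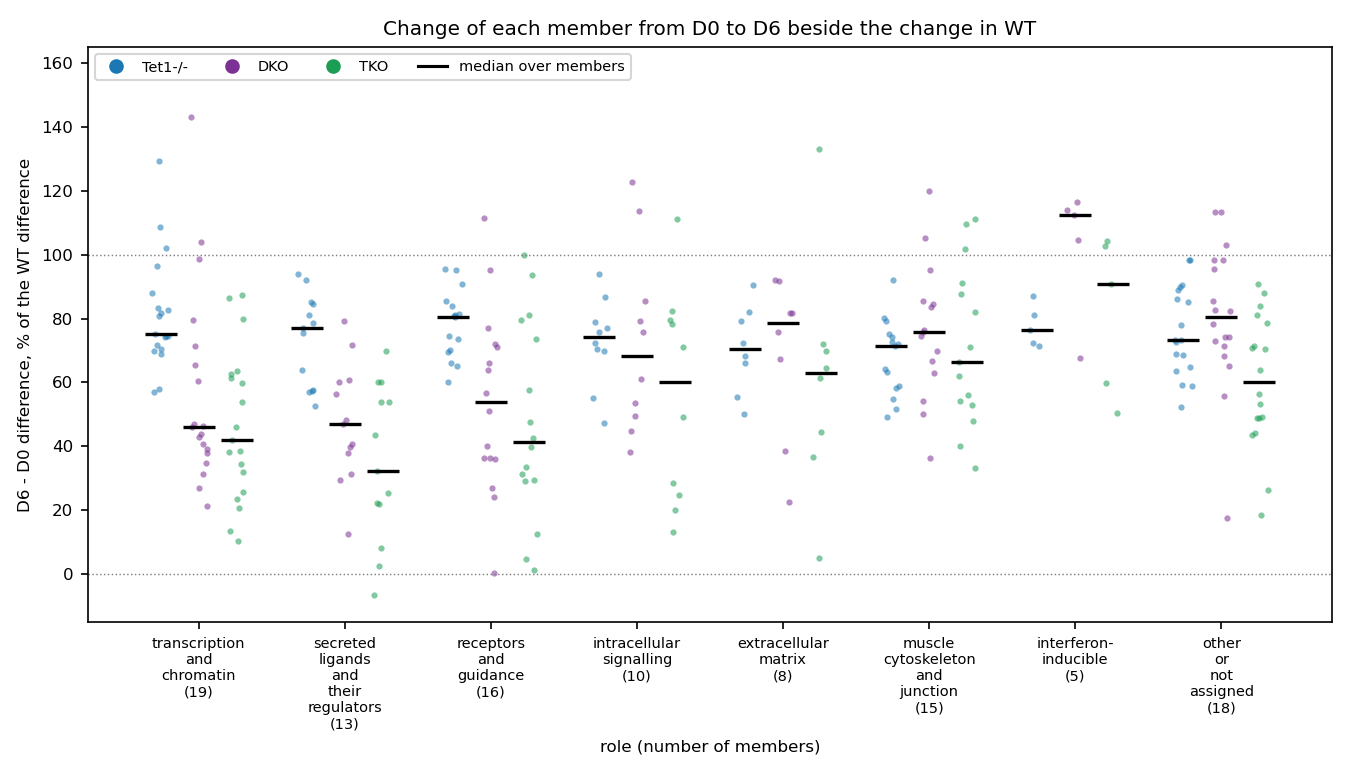
Difference between D6 and D0 means on the log2(CPM + 1) scale as a percent of the same difference in WT, for each member (point) by role and genotype, with black bars for medians over members. In DKO and TKO the transcription, ligand and receptor genes centre near 30 to 55%, and the interferon-inducible genes near 90 to 112%.

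Clones of 1 genotype differed in the level that most members reached. Each D6 library was summarised by the median over the members of its level above the WT D0 mean, as a percent of the WT rise. It was 114%, 71.1% and 113% in WT, and 89.0%, 92.7% and 45.3% in Tet1-/-. Tet2-/- gave 9.69% and 3.86%, DKO 67.1% and 66.1% and TKO 47.2% and 72.5%. Both Tet2-/- libraries were below every other D6 library, while Tet1-/- clone 2.4 lay below both DKO libraries. Of the 104 members, 97 were lowest among the WT D6 libraries in clone O4.2, 98 among the Tet1-/- libraries in clone 2.4, and 88 lower in TKO_8.4 than in TKO_8.12. The other 16 went the opposite way in TKO, among them the endoderm factor Sox17, at 4.44 and 0.765 CPM. A list of 20 pluripotency genes had its highest D6 medians in the Tet2-/- libraries, 7.45 and 7.52 on the log2(CPM + 1) scale, against 7.16 and 7.11 in TKO, 6.61 and 6.35 in DKO, 5.66 to 6.96 in Tet1-/- and 6.09 to 7.13 in WT. At D0 it was 8.20 to 8.85 in all 12 libraries. In these bulk samples fewer differentiated cells and less RNA of a gene per cell cannot be told apart, and the part of this shift in the members' levels was not tested.

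**Figure D3:**
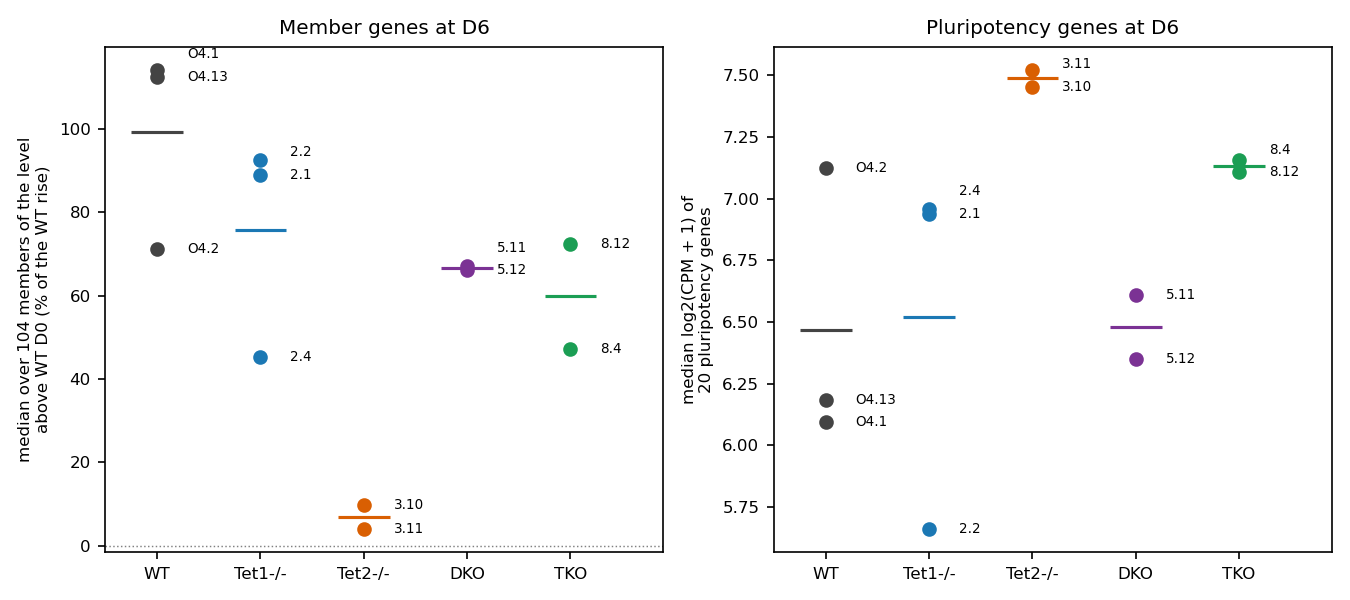
Each point is 1 D6 library with its clone name and each bar a genotype mean, for the median level of the 104 members above WT D0 as a percent of the WT rise (left) and the median log2(CPM + 1) of 20 pluripotency genes (right). The Tet2-/- clones sit at 9.69% and 3.86% on the left and highest on the right, at 7.45 and 7.52.

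Transcription factors made up the largest group with a known role. Of the 28 measured cardiac and lateral mesoderm factors on a list of 29, 8 were members (Foxf1, Gata6, Hand1, Hand2, Isl1, Prdm6, Tbx2 and Tbx20). Hand1, a basic helix-loop-helix factor of heart and extraembryonic mesoderm (mm9 chr11:57642207-57646320), rose most in WT. At D0 it was 0.358 and 0.322 CPM in Tet2-/-. Its D6 level was 133, 40.6 and 236 CPM in WT, and 49.2, 79.4 and 8.98 CPM in Tet1-/-. In Tet2-/- it was 0.735 and 0.888 CPM, in DKO 13.1 and 9.26 CPM, and in TKO 5.75 and 25.5 CPM. D0 libraries ranged from 0.234 to 1.6 CPM, so the Tet2-/- D6 libraries, though above their own D0 libraries, stayed within the range of all D0 libraries and all others at D6 were above it. The fitted log2 change was 5.49 in Tet1-/- (SE 0.84, edgeR adjusted p = 1.85e-05), 3.87 in DKO (SE 1.07, adjusted p = 0.00508) and 3.87 in TKO (SE 1.00, adjusted p = 0.00368). The DKO call was lost without the D0 library of clone DKO_5.11 (3.49) and the TKO call without the D6 library of clone TKO_8.12 (2.4).

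Gata6, a zinc finger factor of primitive endoderm and heart, stood at 63.9, 17.4 and 50.4 CPM at D6 in WT and at 31.1, 43.0 and 6.56 CPM in Tet1-/-. It was 0.765 and 0.462 CPM in Tet2-/-, 13.4 and 8.39 CPM in DKO, and 3.94 and 5.36 CPM in TKO. TKO clone TKO_8.12 already had 3.95 CPM at D0 where clone TKO_8.4 had 0.237 CPM, so the days just overlapped in TKO. Each clone still rose, TKO_8.4 to 3.94 CPM and TKO_8.12 to 5.36 CPM, and TKO did not pass the test. Gata6 rose by a log2 of 5.31 in Tet1-/- (SE 0.79, edgeR adjusted p = 1.30e-05) and 3.74 in DKO (SE 0.94, adjusted p = 0.00252).

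Mesp1, a transient marker of cardiac precursors leaving the streak, had D6 levels of 26.8, 9.55 and 37.5 CPM in WT and 20.9, 87.2 and 4.27 CPM in Tet1-/-. DKO gave 5.27 and 1.72 CPM, TKO 0.468 and 1.33 CPM and Tet2-/- 0.353 and 0.107 CPM. WT and Tet1-/- overlapped, 1 DKO library lay within their range and 1 below it, and both TKO libraries were lower still. Mesp1 rose in Tet1-/- by a log2 of 6.95 (SE 1.00, edgeR adjusted p = 9.19e-06) and in DKO by 3.02 (SE 1.18, adjusted p = 0.0373), the latter call being lost without either D0 library or the D6 library of clone DKO_5.11 (2.01 to 4.03). Hand2, a relative of Hand1, reached 7.88, 1.5 and 10.9 CPM in WT and 3.15, 8.80 and 0.875 CPM in Tet1-/-. It was 0.814 and 0.321 CPM in DKO and 0.100 and 0.561 CPM in TKO, and had no count in either Tet2-/- D6 library. Neither DKO nor TKO passed the test for Hand2.

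Not every factor followed this order. Atf3, a stress-responsive leucine zipper factor, reached 143% of its WT rise in DKO and rose by a log2 of 3.98 in Tet1-/- (SE 0.48), 3.73 in DKO (SE 0.56) and 1.89 in TKO (SE 0.50), with edgeR adjusted p = 1.20e-06, 2.10e-05 and 0.00439. The TKO call was lost without the D0 library of clone TKO_8.12, where the change was 1.19.

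Zfp521, a zinc finger protein of progenitor cells, was already high in Tet2-/- ESCs. At D0 it was 18.7 and 16.5 CPM in Tet2-/-, against 1.24 to 5.58 CPM in WT and 0.644 to 3.47 CPM in the other knockouts. At D6 Tet2-/- had 23.7 and 22.4 CPM, above the 11.1 to 19.7 CPM of WT. It was the only member with a Tet2-/- D6 mean above that of WT. Outside Tet2-/- it behaved like an induced gene, rising by a log2 of 2.79 in Tet1-/- (SE 0.43), 2.91 in DKO (SE 0.56) and 2.22 in TKO (SE 0.52), with edgeR adjusted p = 1.82e-05, 0.000273 and 0.00165. In all, 3 members had a Tet2-/- D0 mean at least 1 log2 unit above WT: Zfp521 (2.49), the pseudokinase gene Nrbp2 (1.17) and Pdgfrl (1.03).

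**Figure D4:**
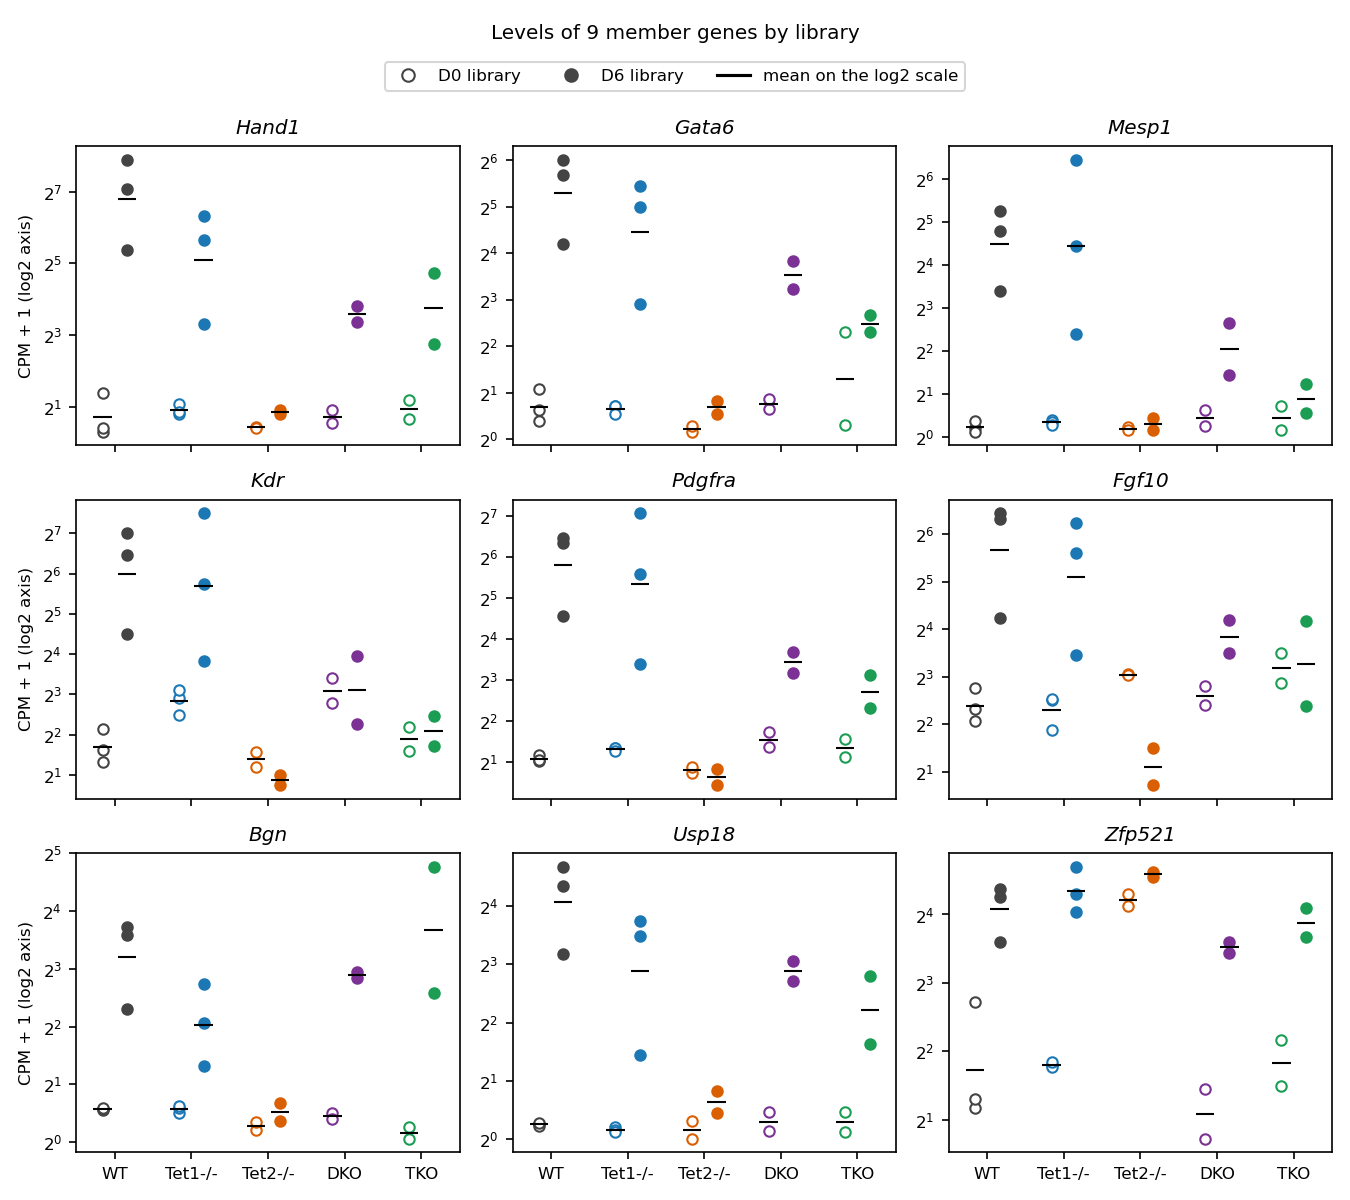
CPM + 1 of 9 members on log2 axes, with 1 open point per D0 library, 1 filled point per D6 library and black bars for means on the log2 scale, by genotype. The D6 and D0 points of Tet2-/- lie close together for 7 of the genes; Fgf10 falls in Tet2-/-, and Zfp521 is high there at both days.

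Ligands and their regulators included 4 BMP pathway genes of the 39 on the TGF-beta and BMP list (Bmp2, Bmp5, Bmp7 and the BMP antagonist Nog). Bmp2 had 53.1, 12.2 and 60.0 CPM at D6 in WT and 24.5, 47.6 and 5.45 CPM in Tet1-/-. DKO had 10.9 and 8.42 CPM, TKO 2.97 and 29.7 CPM and Tet2-/- 0.353 and 0.178 CPM. The 2 TKO clones lay on either side of the DKO clones. Bmp2 rose by a log2 of 5.83 in Tet1-/- (SE 0.96), 4.41 in DKO (SE 1.18) and 5.09 in TKO (SE 1.15), with edgeR adjusted p = 3.77e-05, 0.00393 and 0.00130, and the TKO call was lost without the D6 library of clone TKO_8.12 (2.59). Nog rose in the 3 testable genotypes, by a log2 of 3.22 in Tet1-/- (SE 0.61), 3.93 in DKO (SE 0.79) and 3.98 in TKO (SE 0.76), with edgeR adjusted p = 0.000168, 0.000402 and 0.000317.

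Fgf10, an FGF ligand of mesenchyme, was the member that moved furthest down in Tet2-/-. It went from 7.29 and 7.13 CPM at D0 to 1.82 and 0.640 CPM at D6, while WT went from 3.20 to 5.78 CPM at D0 to 85.8, 17.7 and 78.1 CPM at D6. Tet1-/- reached 47.3, 73.7 and 9.99 CPM, a log2 rise of 3.22 (SE 0.67, edgeR adjusted p = 0.000378). DKO went from 4.25 and 5.94 CPM at D0 to 17.2 and 10.2 CPM at D6, and TKO from 10.3 and 6.34 CPM to 4.18 and 17 CPM. Clone TKO_8.4 thus fell and clone TKO_8.12 rose, and neither DKO nor TKO passed the test. Stard8 was the other member that changed by at least 1 log2 unit downward in Tet2-/- (-1.04). It rose in Tet1-/- (log2 1.52, SE 0.42), DKO (1.84, SE 0.54) and TKO (2.84, SE 0.56), with edgeR adjusted p = 0.00399, 0.00732 and 0.000391. Its D0 means were 8.25 CPM in WT, 7.54 CPM in Tet1-/-, 3.80 CPM in DKO and 2.70 CPM in TKO. At D6 its means in the same order were 70.7, 25.1, 15.7 and 21.7 CPM. With clone as a block in the fit its Tet1-/- change was 0.89 and did not pass, nor did its DKO change without the D0 library of clone DKO_5.11 (1.62).

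Bmp7 was among the 14 members that passed in Tet1-/- alone (log2 1.33, SE 0.29, edgeR adjusted p = 0.000602), and not with clone as a block (0.84) or without the D6 library of clone 2.2 (0.99). Its D6 levels were 22.6 to 34.0 CPM in WT, 14.4, 24.2 and 10.5 CPM in Tet1-/-, 9.27 and 9.59 CPM in DKO, and 11.7 and 18.5 CPM in TKO. TKO began higher, at 12.4 and 8.05 CPM at D0, than the 4.0 to 5.39 CPM of WT. Apcdd1, an inhibitor of Wnt signalling, was the member with the lowest change in TKO (-0.16 on the log2(CPM + 1) scale, against 2.4 in WT).

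Among receptors, Kdr, which marks mesoderm with blood and endothelial potential, was the least responsive member in DKO. At D6 it had 87.6, 21.6 and 128 CPM in WT and 52.2, 180 and 13.2 CPM in Tet1-/-. DKO went from 5.86 and 9.53 CPM at D0 to 14.4 and 3.80 CPM at D6, 1 up and 1 down. TKO went from 2.01 and 3.57 CPM to 2.31 and 4.54 CPM, and Tet2-/- from 1.31 and 1.96 CPM to 0.677 and 0.995 CPM. The days were separate in WT and Tet1-/- and overlapped in DKO and TKO. Kdr rose in Tet1-/- by a log2 of 3.49 (SE 0.75, edgeR adjusted p = 0.000516), a call lost with clone as a block (1.93).

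Pdgfra, the PDGF receptor of mesoderm and primitive endoderm, lies 734623 bases from Kdr on mm9 chromosome 5. It stood at 87.2, 22.7 and 79.6 CPM at D6 in WT, 47.0, 132 and 9.56 CPM in Tet1-/-, and 0.794 and 0.355 CPM in Tet2-/-. DKO had 11.9 and 8.01 CPM and TKO 4.01 and 7.65 CPM, above their D0 levels of 1.18 to 2.3 CPM. It rose in Tet1-/- (log2 5.18, SE 0.72, edgeR adjusted p = 5.76e-06) and in DKO (2.16, SE 0.82, adjusted p = 0.0312). The DKO call was lost on leaving out either D0 library or the D6 library of clone DKO_5.11 (1.85 to 2.48).

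The chemokine receptor Cxcr4 and the plexin Plxna4, a semaphorin receptor subunit, both stayed low in TKO. Cxcr4 had 91.8, 23.6 and 67.8 CPM at D6 in WT and 46.4, 95.8 and 14 CPM in Tet1-/-. DKO had 17.8 and 9.44 CPM, TKO 5.78 and 4.03 CPM and Tet2-/- 3.21 and 2.67 CPM. The TKO range at D6 lay inside its D0 range of 1.4 to 6.23 CPM. Cxcr4 rose in Tet1-/- (log2 4.29, SE 0.62, edgeR adjusted p = 8.62e-06) and DKO (2.16, SE 0.72, adjusted p = 0.0155), the latter call being lost without either D0 library or the D6 library of clone DKO_5.11. The receptor tyrosine kinase Axl rose in Tet1-/- (log2 1.58, SE 0.28), DKO (2.42, SE 0.36) and TKO (2.24, SE 0.36), with edgeR adjusted p = 9.93e-05, 2.16e-05 and 6.60e-05.

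Tests of the difference between knockouts were far sparser than the tests within them. By edgeR, the rise differed between DKO and Tet1-/- for 0 members, where 0% of all genes differed in either direction. For 8 members the unadjusted p was under 0.05, and DESeq2 also called 0. Between TKO and DKO 0 members differed, with 0.0192% of all genes higher and 0.0128% lower, 12 members at an unadjusted p under 0.05 and 0 called by DESeq2. Between TKO and Tet1-/- 4 members had a lower change in TKO, where 0.786% of all genes did, and 1 a higher change, where 1.48% did. The 4 were Cxcr4, Nrbp2, Plxna4 and Gata6 and the other was Prkar1b. None of the 4 passed the test of D6 against D0 in TKO. With clone as a block 0 of these calls remained, and DESeq2 called 12.

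Prkar1b encodes a regulatory subunit of protein kinase A. At D6 it was 9.46, 6.70 and 9.99 CPM in WT, 7.86, 7.03 and 4.54 CPM in Tet1-/-, 8.0 and 10.3 CPM in DKO, 6.82 and 8.67 CPM in TKO and 2.53 and 1.99 CPM in Tet2-/-. The D0 levels of DKO and TKO, 0.569 to 0.874 CPM, were below the 1.29 to 1.64 CPM of Tet1-/-. It rose by a log2 of 1.91 in Tet1-/- (SE 0.23), 3.21 in DKO (SE 0.31) and 3.37 in TKO (SE 0.31), each passing the edgeR test. Of the 10 signalling members, 9 rose in DKO and 7 in TKO, beside 85 and 76 of all 104 members and 18.6% and 16.8% of all genes.

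Matrix, muscle and cytoskeletal members were counted in the same way, with no test between roles. Of 8 matrix genes, 6 rose in DKO and 5 in TKO, and 14 of 15 muscle, cytoskeleton and junction genes rose in each, beside the same shares of all members and of all genes. Bgn, the proteoglycan biglycan, had 11, 3.97 and 12.3 CPM at D6 in WT and 5.66, 3.15 and 1.48 CPM in Tet1-/-. DKO had 6.12 and 6.69 CPM, TKO 4.98 and 26.3 CPM and Tet2-/- 0.588 and 0.284 CPM. TKO clone TKO_8.12 thus had the highest level of all libraries, and the TKO mean rise was 133% of that in WT. The fitted log2 rise was 2.62 in Tet1-/- (SE 0.61), 3.89 in DKO (SE 0.79) and 6.86 in TKO (SE 0.92), with edgeR adjusted p = 0.00116, 0.000428 and 9.26e-06.

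Tnnc1, cardiac troponin C, was 12.1, 3.93 and 11.2 CPM at D6 in WT, 5.44, 5.03 and 2.19 CPM in Tet1-/-, 5.03 and 4.35 CPM in DKO, 2.91 and 19.2 CPM in TKO, and 0.559 and 0.675 CPM in Tet2-/-. It rose by a log2 of 2.24 in Tet1-/- (SE 0.58), 3.14 in DKO (SE 0.76) and 5.17 in TKO (SE 0.81), with edgeR adjusted p = 0.00236, 0.00193 and 4.95e-05. Capn6, a calpain-family protein without protease activity, rose in Tet1-/- (log2 5.47, SE 0.90) and DKO (4.69, SE 1.07), with edgeR adjusted p = 3.97e-05 and 0.00121. The D6 levels of Capn6 in TKO were 3.57 and 26.2 CPM, against 0 and 0.228 CPM at D0, a fitted log2 rise of 6.79 (SE 1.25, edgeR adjusted p = 0.000214).

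The 5 interferon-inducible members (Usp18, Trim30a, Iigp1, Ifi35 and Ifit1) all rose in Tet1-/-, as every member did, and in DKO and TKO, beside 85 and 76 of all 104 members there and 19.9%, 18.6% and 16.8% of all genes in the 3 genotypes. This role too was assigned after the members were known. Usp18, a protease that removes ISG15, had 24.6, 8.05 and 19.4 CPM at D6 in WT and 12.3, 10.2 and 1.72 CPM in Tet1-/-. DKO had 7.29 and 5.55 CPM, TKO 2.1 and 5.97 CPM and Tet2-/- 0.765 and 0.355 CPM. Its log2 rise was 5.85 in Tet1-/- (SE 0.86), 4.52 in DKO (SE 0.96) and 3.92 in TKO (SE 0.96), with edgeR adjusted p = 1.11e-05, 0.000677 and 0.00251. Trim30a had 13.4, 5.82 and 9.92 CPM at D6 in WT and 9.48, 5.42 and 1.31 CPM in Tet1-/-. It was 9.95 and 10.5 CPM in DKO, 4.61 and 21.8 CPM in TKO, and 0.559 and 0.284 CPM in Tet2-/-. Ifi35 rose by a log2 of 2.04 in Tet1-/- (SE 0.42), 2.60 in DKO (SE 0.52) and 2.4 in TKO (SE 0.51), with edgeR adjusted p = 0.000367, 0.000358 and 0.000796. Of the 5, 4 had a DKO D6 mean above that of WT, the exception being Usp18.

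**Figure D5:**
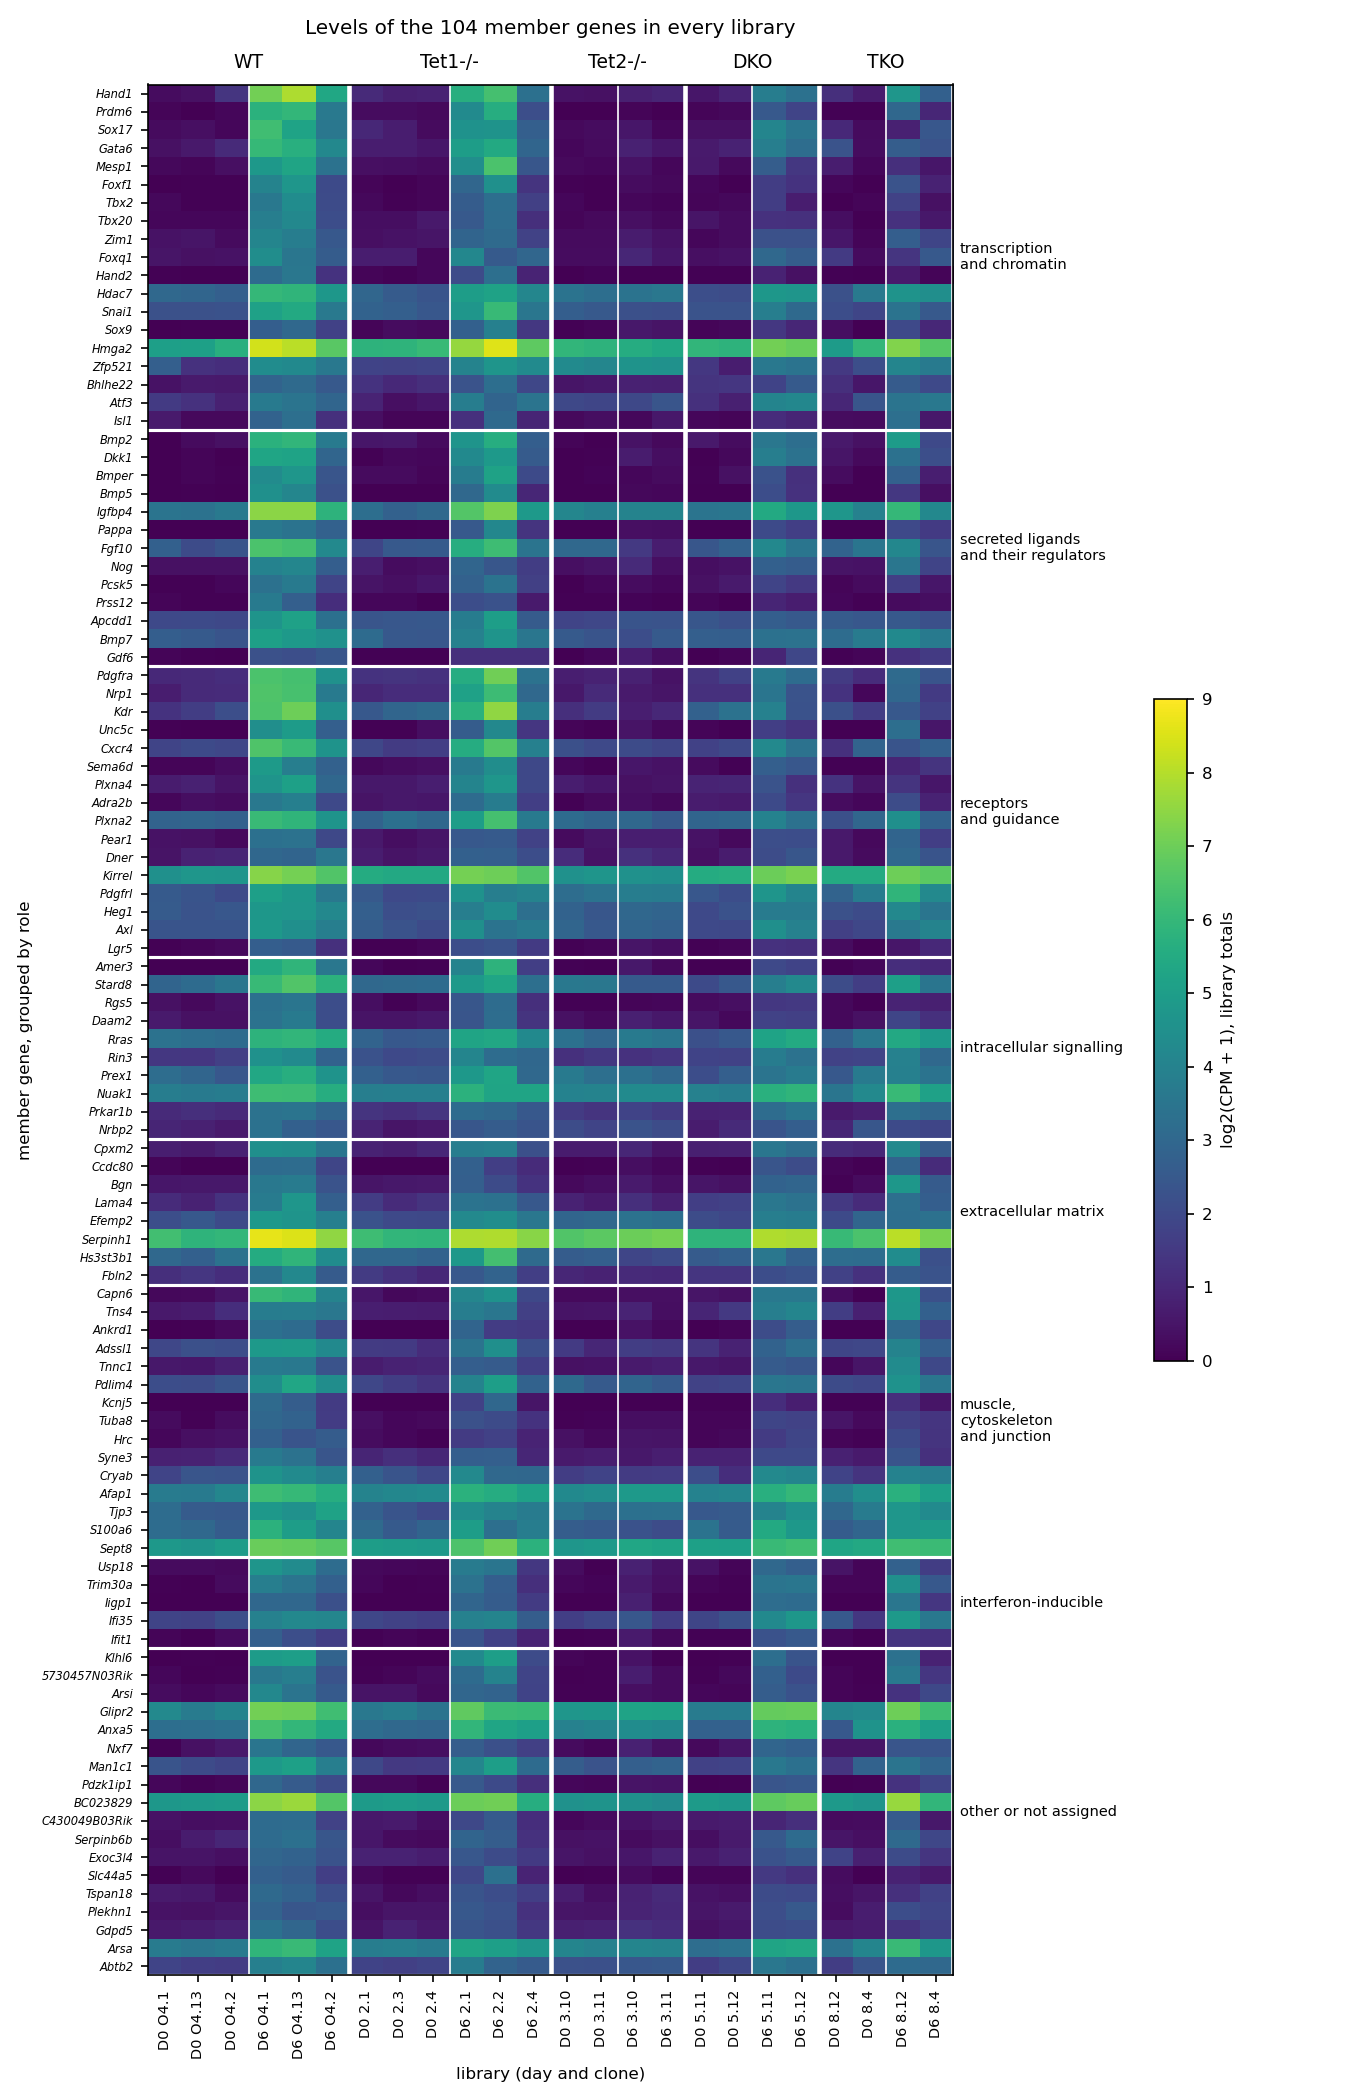
Level of each of the 104 members (rows, by role) in each of the 24 libraries (columns, by genotype, day and clone), as log2(CPM + 1) on a colour scale from 0 to 9. The D6 columns of Tet2-/- resemble its D0 columns, as the rule requires, while the D6 columns of the other genotypes are brighter, most so in WT clones O4.1 and O4.13 and Tet1-/- clone 2.2.

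The lists from which members come were counted in the same fits, beside the 19.9%, 18.6% and 16.8% of all genes that rose in Tet1-/-, DKO and TKO. The members, chosen for a rise in WT, are included in the list counts and left out of the counts of other genes. Of 23 tested cardiac and lateral mesoderm factors, 18 rose and 3 fell in Tet1-/-, 12 rose and 2 fell in DKO, and 9 rose and 1 fell in TKO. Among the 15 that are not members, 10, 7 and 4 rose. Of 25 primitive streak and early mesoderm genes, 20, 17 and 15 rose in Tet1-/-, DKO and TKO and 2 fell in each, and of the 21 other than members 16, 15 and 15 rose. Of 39 TGF-beta and BMP genes, 20, 17 and 17 rose and 3, 4 and 5 fell, with 16, 14 and 14 of the 35 others rising. Among 22 endoderm and yolk sac genes, 11, 10 and 4 rose and 4, 1 and 2 fell, with 7, 6 and 4 of the 18 others rising. The 4 in TKO are 18.2% of the list, near the share of all genes, and the 4 members on it (Cxcr4, Gata6, Pdgfra and Sox17) did not pass there.

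The remaining lists held 0 to 4 members, the most on the matrix list. Among 39 matrix genes other than collagens 27, 26 and 23 rose and 2, 0 and 0 fell, with 23, 23 and 21 of the 35 others rising. Among 32 muscle genes 19, 19 and 22 rose and 2, 2 and 1 fell. Among 34 paraxial and limb mesenchyme factors 21, 15 and 16 rose and 5, 3 and 2 fell. Of 27 endothelial and blood genes 8, 7 and 5 rose and 7, 6 and 5 fell. Among 22 trophoblast genes 15, 14 and 14 rose and 0 fell. Neural and neural crest genes and pluripotency genes contributed no member: 10, 6 and 6 of 25 neural genes rose and 7, 6 and 6 fell, and 15, 13 and 14 of 20 pluripotency genes fell while 1, 0 and 1 rose.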

How the data were processed

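RNA-seq was deposited as raw read counts per gene, 1 table for each day. Per the labels, the authors aligned reads with STAR 2.5.1 to mm9 and named DESeq2; the deposited counts are not normalized. The sources used here name both featureCounts and HTSeq for the counting and give no strand setting, so overlapping or antisense genes may share reads. ERCC lines were 0, and spike-in scaling was not repeated. Where a symbol had several lines (23 members), the first was kept. Members and gene lists were chosen with earlier results of these data known; the same holds for the genes named, which follow a rule on WT rise, level, list membership and fitted change, and others were chosen after their values were seen.

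Counts were fitted over all 10 groups in edgeR 4.0.16 (R 4.3.3) with a filter of 10 counts and TMM scaling, and D6 was contrasted with D0 within Tet1-/-, DKO and TKO and between them. The p-values measure the spread between clones. Library-total CPM describes levels. Members of low count rest on few reads: 3 counts equal 0.0805 to 0.163 CPM. The alternatives were DESeq2 1.42.0, other scalings, no filter, other lines, fewer libraries and a clone block. Title numbers join different clones across days, so the block used the clone named in the labels, which pairs 11 of 13 clones from the same cell line; their deviations from group means correlated by 0.0526 to 0.156 between days. The script was tested on simulated data.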

Additional observations from a re-analysis of the deposited data

Results flagged for a closer look

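A closer look was given to 5 members, whose change from D0 to D6 differed between TKO and Tet1-/- by the interaction test of edgeR. The log2 difference, TKO minus Tet1-/-, was -4.09 for Cxcr4 (SE 0.93, adjusted p = 0.0238), -2.72 for Nrbp2 (SE 0.65, adjusted p = 0.0311), -4.64 for Plxna4 (SE 1.21, adjusted p = 0.043), -4.36 for Gata6 (SE 1.15, adjusted p = 0.0439) and 1.47 for Prkar1b (SE 0.39, adjusted p = 0.0437). At D0 the TKO clones had 6.23 and 1.4 CPM of Cxcr4, 4.34 and 0.911 CPM of Nrbp2, 0.394 and 1.48 CPM of Plxna4, 0.237 and 3.95 CPM of Gata6 and 0.749 and 0.569 CPM of Prkar1b. Without the D0 library of clone TKO_8.4 the difference was -2.68 for Cxcr4 and -1.24 for Nrbp2, and without that of clone TKO_8.12 it was -3.38 for Plxna4 and -1.2 for Gata6; none of these passed. For Prkar1b it was 1.64 and 1.3 without either, and neither passed. With clone as a block the values were -2.85 for Cxcr4, -2.2 for Nrbp2, -3.45 for Plxna4, -3.28 for Gata6 and 1.65 for Prkar1b, and none of the 5 passed. Plxna4 stood at 24.5, 7.01 and 33.9 CPM at D6 in WT, 15.5, 25.5 and 2.83 CPM in Tet1-/-, and 0.468 and 1.53 CPM in TKO.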

How the results depend on the processing

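The counts of members that rose in Tet1-/- and DKO stayed within 1.5 times under every alternative run, and leaving out 1 library gave 101 to 104 in Tet1-/- and 63 to 82 in DKO. In TKO leaving out 1 library gave 47 to 77, the lowest without the D6 library of clone TKO_8.12, and fitting TKO libraries alone gave 55. With the replicate block by clone, 95 rose in Tet1-/-, 92 in DKO and 82 in TKO. The block moved the count of members that differed between TKO and Tet1-/- from 5 to 0. For that comparison DESeq2 called 12 members, and leaving out 1 Tet1-/- library gave 0 to 13. The count was 0 without the D0 library of clone 2.3 or 2.4 and 1 without the D6 library of clone 2.2. It was 2 without the D0 library of clone 2.1 and 13 without the D6 library of clone 2.4. Between TKO and DKO leaving out 1 library gave 0 to 3, the 3 without the D0 library of clone TKO_8.12. Scaling by library totals moved the median of all genes to 0.21, 0.20 and 0.19 log2 in Tet1-/-, DKO and TKO and the share of higher among all calls from 64.0%, 63.6% and 66.1% to 73.6%, 75.1% and 76.7%; the members called were then 104, 88 and 78. The rule itself gave 101 genes by TMM-scaled CPM (89 shared, 85.6% of the 104), 133 with a pseudocount of 0.5 (80 shared, 76.9%), 91 with 2 (63 shared, 60.6%) and 90 to 155 on leaving out 1 library, 155 without the D6 library of WT clone O4.2. No gene test reversed. Depth limits genes near 0 at D0, whose fold changes are not bounds, and 2 clones per group limit the DKO and TKO tests.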

Other observations

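Within 1000000 bases on the mm9 annotation lay 9 pairs of members; the annotation placed 99 of the 104. The closest were Igfbp4 and Tns4 on chromosome 11, with 13023 bases between them, Tuba8 and Usp18 on chromosome 6 (19052 bases) and Serpinh1 and Gdpd5 on chromosome 7 (28319 bases). Igfbp4, an IGF-binding protein, passed in Tet1-/- and DKO, while Tns4, a tensin, passed in Tet1-/-, DKO and TKO. Whether such pairs are more frequent than among other genes was not tested.

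Glipr2 and Anxa5, a Golgi-associated protein and an annexin that binds phosphatidylserine, were among the members near WT levels in DKO. Glipr2 stood at 135, 74.5 and 128 CPM at D6 in WT, 117 and 119 CPM in DKO, and 36.5 and 35.8 CPM in Tet2-/-. It rose by a log2 of 2.65 in Tet1-/- (SE 0.25), 3.03 in DKO (SE 0.31) and 2.4 in TKO (SE 0.30), each passing the edgeR test.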
